A study of Mus musculus with 9 samples.

Results

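The surface proteins considered here are 8 genes by which stem cells are commonly sorted or stained: Thy1, Mcam, Cd9, Cd24a, Cd44, Alcam, Prom1 and Alpl. Every probe that the platform table pairs with one of these symbols was taken, which gave 15 of the 25697 probes on a mouse Illumina bead array: 6 for Cd44, 3 for Mcam and 1 for each other gene. The question put to them was which of these markers tell germline from pluripotent stem cells. After probes were required to be detected on at least 2 of the 9 arrays, 7 probes of 5 genes remained (3 of Mcam and 1 each of Thy1, Cd9, Cd44 and Alpl), of 12695 probes and 8750 named genes in all. Cd24a, Alcam, Prom1 and 5 Cd44 probes did not pass and are described separately.

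RNA levels were compared among 3 kinds of cultured mouse stem cells. Germ pluripotent stem cells (gPS) were 3 clonal lines, sorted for GFP, that the labels call pluripotent. Embryonic stem cells (ESC), the standard pluripotent cell of the mouse, were a pair of arrays described as a duplicate. Germ stem cells (GSC), which the labels call unipotent, were 4 lines. Each gPS and GSC line had 1 array. No genotype, strain, age or treatment is given in the labels used here. The labels do not say from which GSC line a gPS line came, nor that the ESC arrays are separate cultures, so the spread of that pair may be technical. GFP sorting is stated for gPS alone and cannot be told apart from the gPS state. In bulk RNA, fewer cells of a type and less RNA per cell cannot be told apart.

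Pluripotency markers followed the labels apart from Tdgf1 in gPS. Germline markers did so apart from Etv5 and, in ESC against GSC, Gfra1. The summed normalized signal of 6 germline markers was 371 to 470 in gPS, 449 to 508 in ESC and 4673 to 7188 in GSC. Most of the GSC sum came from Dazl, at 12.48, 12.53, 12.38 and 12.01 on the log2 scale. In gPS against GSC, 5 of the 6 fell, while Etv5, a transcription factor downstream of GDNF, averaged 8.62 in gPS and 8.75 in ESC against 6.58 in GSC and rose (limma adjusted p = 0.00185 in gPS and 0.00297 in ESC). The summed signal of 10 pluripotency markers was 35857 to 41493 in gPS, 38574 to 39226 in ESC and 1506 to 3139 in GSC. Median raw signals were 87.4 to 100.9 in GSC and 83.6 to 86.6 in gPS and ESC. Probes detected per array were 10853 to 11813 in GSC and 9871 to 10650 in gPS and ESC. Both measures separated GSC from the other arrays, so detection was not on equal terms between the groups. GSC 1 and GSC 3 were closer to each other (r = 0.994 across probes, SD of the log2 difference 0.22) than the ESC duplicate (r = 0.986, SD 0.34), so their independence is open to doubt, and results that rest on them are given with and without them.

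Thy1 is a small glycosylphosphatidylinositol (GPI)-anchored protein of the immunoglobulin family that is used to enrich spermatogonial stem cells from mouse testis, and that fibroblasts carry too. Mcam and Alcam are transmembrane adhesion proteins of the same family, Cd9 is a tetraspanin found on pluripotent and on spermatogonial stem cells, and Cd44 is the main hyaluronan receptor. Cd24a is a small GPI-anchored sialoglycoprotein, Prom1 a pentaspan protein of membrane protrusions, and Alpl the GPI-anchored tissue-nonspecific alkaline phosphatase, whose activity stains pluripotent cells and primordial germ cells.

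Of the 5 genes tested, Mcam was lower and Alpl higher in both pluripotent groups than in GSC, while Thy1, Cd9 and Cd44 did not pass the test against GSC. Between the pluripotent groups, Mcam was the 1 gene of the 5 that passed, and it was higher in gPS. A probe was called at an adjusted p under 0.05 in limma's moderated test over all 12695 probes (Benjamini-Hochberg). By that rule 2 of 5 genes were called in gPS against GSC, where 56% of all genes and 54.7% of all probes were called. It was again 2 of 5 in ESC against GSC, where 54.3% of genes and 53.3% of probes were called. Neither count stands above the background share. In gPS against ESC 1 of 5 was called, against 1.05% of all genes and 1.13% of all probes. The comparisons with GSC share the 4 GSC arrays, so their calls are not independent of each other.

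**Figure D1:**
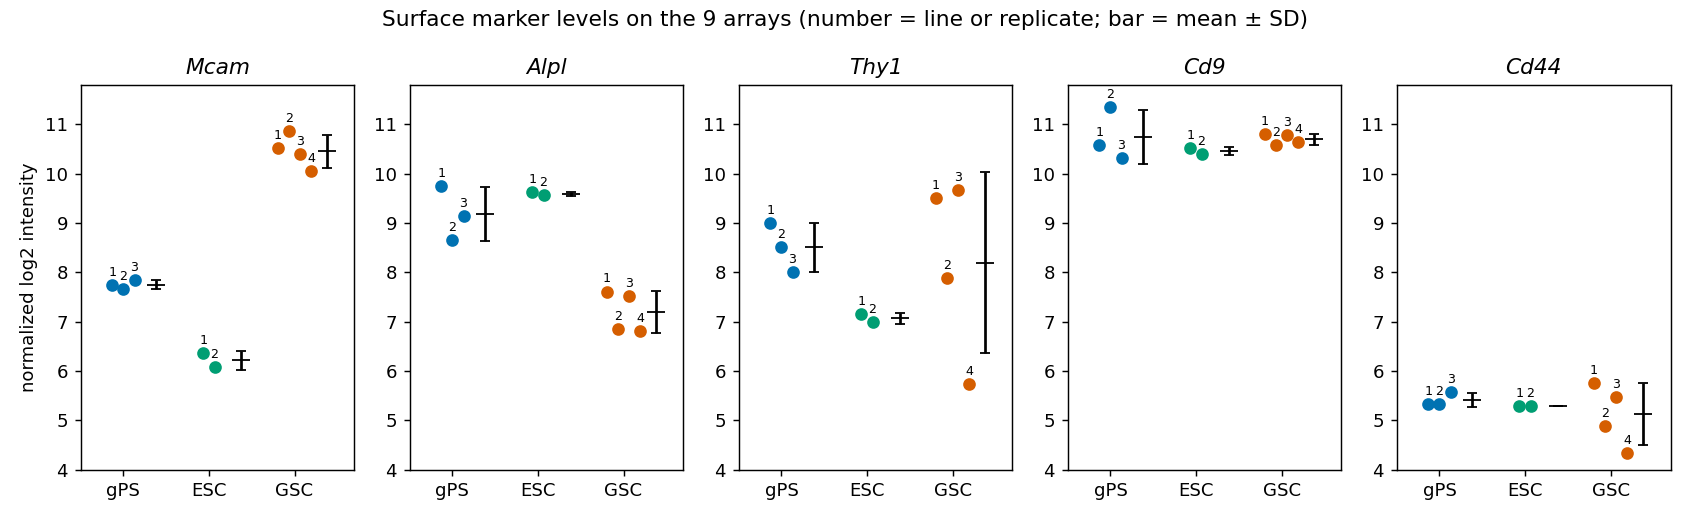
Normalized log2 intensity (vertical axis) of the probe with the highest mean for each of the 5 tested genes, on 3 gPS, 2 ESC and 4 GSC arrays; each point is 1 array, numbered by line or replicate, and the bar is the mean ± SD. For Mcam, gPS (7.66 to 7.85) and ESC (6.08 and 6.36) lie below GSC (10.05 to 10.86), for Alpl they lie above, and for Thy1 the GSC arrays spread from 5.73 to 9.67. Levels of different genes come from different probes and cannot be set against each other.

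The promoters of Mcam and Alpl are shown because these genes separated the groups. The sequences are from RefSeq (GRCm38.p6), from 250 bases before to 50 after the annotated start, in the direction of transcription, and 6 of the 8 genes are in the table used, Thy1 and Cd24a not. Capitals mark GC boxes (GGGCGG on either strand, overlapping matches merged) and the cyclic AMP response element (CRE, TGACGTCA). The Mcam promoter is chr9:44134408-44134707 on the plus strand. Alpl has a pair of annotated starts, at chr4:137796335-137796634 and chr4:137766426-137766725 on the minus strand, and the data do not say which was used.
Mcam: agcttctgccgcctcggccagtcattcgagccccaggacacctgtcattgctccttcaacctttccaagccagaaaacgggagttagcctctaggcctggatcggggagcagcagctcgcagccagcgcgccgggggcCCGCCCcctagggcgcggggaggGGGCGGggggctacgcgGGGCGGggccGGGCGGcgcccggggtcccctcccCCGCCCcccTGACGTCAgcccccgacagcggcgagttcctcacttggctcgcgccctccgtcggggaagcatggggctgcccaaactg
Alpl, first listed start: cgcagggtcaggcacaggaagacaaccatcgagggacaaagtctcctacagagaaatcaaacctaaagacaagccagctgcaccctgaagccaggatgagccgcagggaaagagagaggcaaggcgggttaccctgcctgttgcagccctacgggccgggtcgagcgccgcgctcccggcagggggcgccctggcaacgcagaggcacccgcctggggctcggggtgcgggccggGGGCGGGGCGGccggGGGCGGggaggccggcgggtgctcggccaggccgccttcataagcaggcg
Alpl, second listed start: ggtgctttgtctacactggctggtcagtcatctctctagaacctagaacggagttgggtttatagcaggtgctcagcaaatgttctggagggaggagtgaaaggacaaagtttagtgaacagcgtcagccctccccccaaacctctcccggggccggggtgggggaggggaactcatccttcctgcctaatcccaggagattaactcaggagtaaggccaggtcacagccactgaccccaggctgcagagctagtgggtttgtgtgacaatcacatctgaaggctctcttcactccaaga
The Mcam window held 29 CpG dinucleotides and 72.7% G and C, where the median promoter held 7 CpG and 87.1% of promoters had fewer than Mcam. It contained 5 GC boxes, a motif found in 35.7% of the 32851 promoters, and 1 CRE, found in 1.79%. The first Alpl window held 26 CpG and 3 GC boxes, and the second held 4 CpG and none. The octamer ATGCAAAT, the letters read by Pou5f1, was searched on both strands too and matched 0 of the 8 windows of these genes and 1.74% of all promoters. The TATA box TATAAA (13.6% of promoters, on either strand) matched the second Alpl window alone, and there on the strand opposite to the one printed. These letters are thus absent from that window in the direction of transcription, and no TATA box is read for that start. CCAAT (37.4%) matched 1 window each of Alcam and Prom1. These matches describe the letters of the windows and were not tested as binding sites.

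Mcam, an adhesion protein best known from endothelial, smooth muscle and mesenchymal cells, was low in every pluripotent array and high in every GSC array. With its brightest probe (ILMN_2955919) the log2 intensity was 7.74, 7.66 and 7.85 in gPS lines 1 to 3, 6.36 and 6.08 in the ESC arrays, and 10.52, 10.86, 10.39 and 10.05 in GSC lines 1 to 4. The lowest GSC array lay 2.20 above the highest pluripotent array, a gap in that direction reached by 159 of the 12695 probes, and the gPS lines all lay above both ESC arrays, as did 16.9% of all genes and 16.4% of all probes. Group means were 7.75 ± 0.10 in gPS (SD, n = 3), 6.22 ± 0.20 in ESC (SD, n = 2) and 10.46 ± 0.33 in GSC (SD, n = 4). The gPS lines were 6.51-fold lower than GSC (log2 difference -2.70, SE 0.20, 95% interval -3.14 to -2.27, limma adjusted p = 1.45e-06). The ESC arrays were 18.9-fold lower than GSC (log2 difference -4.24, SE 0.23, limma adjusted p = 2.04e-07), the fall of rank 50 among all probes. Of all genes, 30.8% fell in gPS and 29.7% in ESC against GSC.

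Between the pluripotent groups, Mcam was 2.90-fold higher in gPS than in ESC on this probe (log2 difference 1.53, SE 0.24, 95% interval 1.01 to 2.06, limma adjusted p = 0.014), the rise of rank 36 among all probes. Of all genes, 0.446% rose and 0.606% fell in this comparison. The difference stayed at 1.53 when the ESC arrays were averaged to 1 sample, and was 1.67 without ESC 1 and 1.40 without ESC 2, but it was then not called (limma adjusted p = 0.201, 0.146 and 0.143). In these fits ESC is 1 sample that is assumed to vary like the other groups. The limma adjusted p-value of this difference was 0.0781 with gPS and ESC fitted alone and 0.0546 with GSC 1 and GSC 3 left out. The call was kept in 18 of 24 alternatives.

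The other Mcam probes gave the same order of groups. On ILMN_2614531 the log2 intensity was 6.23, 6.25 and 6.68 in gPS, 5.20 and 5.38 in ESC, of which 1 array did not detect it, and 8.64, 9.11, 8.51 and 8.23 in GSC. On ILMN_1229960 it was 6.28, 6.15 and 6.57 in gPS, 5.62 and 5.33 in ESC, and 8.76, 8.91, 8.37 and 8.18 in GSC. All 3 probes ranked gPS above ESC and below GSC with no overlap, where 16.4% of all probes had every gPS array above both ESC arrays. The fall in gPS against GSC was -2.24 and -2.23 on these probes, and in ESC against GSC it was -3.33 and -3.08, each called. The excess of gPS over ESC was 1.10 and 0.86 on the log2 scale, and neither passed (limma adjusted p = 0.0749 and 0.137). Across the 9 arrays the probes correlated pairwise at r = 0.993 to 0.994, a value carried by the separation of the groups and the shared arrays.

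Alpl, the phosphatase behind the alkaline phosphatase stain, ran the other way. Its log2 intensity was 9.75, 8.65 and 9.14 in gPS, 9.62 and 9.57 in ESC, and 7.61, 6.85, 7.52 and 6.80 in GSC. The pluripotent arrays all lay above the GSC arrays, by at least 1.04, which 646 of the 12695 probes reached in that direction, and gPS overlapped ESC. The means were 9.18 ± 0.55 in gPS (SD, n = 3), 9.60 ± 0.04 in ESC (SD, n = 2) and 7.20 ± 0.43 in GSC (SD, n = 4). Alpl was 3.96-fold higher in gPS than in GSC (log2 difference 1.99, SE 0.28, limma adjusted p = 0.000161). In ESC it was 5.28-fold higher than in GSC (log2 difference 2.40, SE 0.32, limma adjusted p = 0.000116). Of all genes, 25.2% rose in gPS and 24.6% in ESC. Between gPS and ESC the difference was -0.41 with a 95% interval of -1.16 to 0.33 (limma adjusted p = 0.608), an interval that covers differences in either direction.

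Mcam and Alpl were thus the genes of the 5 whose pluripotent and GSC arrays did not overlap. Over all genes, 49.4% had groups that did not overlap in this way: 27.7% had every pluripotent array below every GSC array, as Mcam did, and 21.7% the reverse, as Alpl did.

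**Figure D2:**
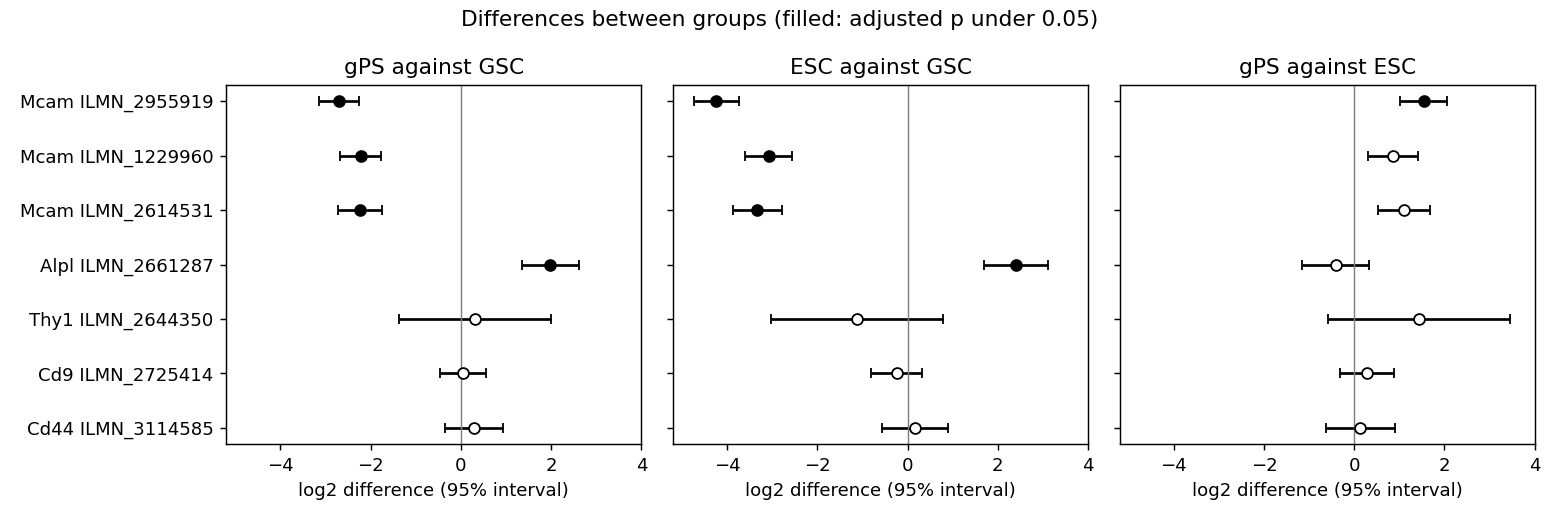
Log2 differences between groups (horizontal axis) with 95% intervals for the 7 probes kept, in gPS against GSC (left), ESC against GSC (middle) and gPS against ESC (right); filled points passed an adjusted p of 0.05. The 3 Mcam probes and Alpl are filled in both comparisons with GSC, 1 Mcam probe is filled in gPS against ESC (1.53), and the widest intervals belong to Thy1.

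Thy1, the marker used to enrich germline stem cells from testis, did not tell the groups apart, and its spread among the GSC lines was wide. Its log2 intensity was 9.004, 8.52 and 8.01 in gPS, 7.15 and 6.99 in ESC, and 9.52, 7.88, 9.67 and 5.73 in GSC. GSC 1 and GSC 3 were the highest of the 9 arrays and GSC 4 the lowest, so the GSC range covered both other groups, while gPS lay above ESC without overlap, as did the 16.9% of genes above. The SD among GSC lines was 1.83 on the log2 scale, larger than for 99.8% of the probes kept, where the median SD was 0.22. The difference was 0.31 in gPS against GSC (SE 0.76, limma adjusted p = 0.751) and -1.13 in ESC against GSC (SE 0.87, limma adjusted p = 0.294). In gPS against ESC it was 1.44 (SE 0.91, 95% interval -0.57 to 3.45, limma adjusted p = 0.479). The error of that difference comes from all 9 arrays, the wide GSC lines included. Without GSC 4 the difference in gPS against GSC turned to -0.51 (adjusted p = 0.349), and that in ESC against GSC became -1.95 and passed (limma adjusted p = 0.00779). Without GSC 1 and GSC 3 it was 1.71 in gPS against GSC and passed (limma adjusted p = 0.0291), and 0.27 in ESC against GSC.

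GSC 1 and GSC 3, the arrays with the highest Thy1, also had the highest summed fibroblast markers. The summed normalized signal of the 8 fibroblast markers tested, of 14 listed, was 705, 491 and 472 in gPS, 514 and 459 in ESC, and 3143, 634, 2740 and 750 in GSC. Dcn, a matrix proteoglycan of fibroblasts, stood at 5.71, 5.58 and 5.06 in gPS, 5.97 and 5.15 in ESC, and 10.32, 5.89, 10.18 and 5.72 in GSC on the log2 scale. The matrix markers Dcn and Col1a1 were thus highest in GSC 1 and GSC 3. Twist1 was not, at 6.80, 6.72, 6.69 and 6.31 in GSC lines 1 to 4. Among the GSC lines the remaining markers were highest in GSC 1 and GSC 3 as well. Within gPS and within ESC, Thy1 ran in the order of the sum, but across the groups it did not. It was 7.88 in GSC 2 at a sum of 634, 5.73 in GSC 4 at 750 and 9.004 in gPS line 1 at 705. A sum leans on its brightest gene, in GSC 4 Col5a1 at 9.21. The mean log2 level of the same markers was 7.76, 6.07, 7.62 and 5.70 in GSC lines 1 to 4, with GSC 2 above GSC 4 as for Thy1. That mean was 6.06, 5.79 and 5.68 in gPS and 5.76 and 5.70 in ESC, so gPS line 3 lay below GSC 4 with a higher Thy1. Pdgfra, Prrx1 and Lum were not detected on any gPS or ESC array, whereas Col5a1, Loxl1, Col1a1, Dcn and Twist1 were detected on all of them. Of the 8 markers, 0 rose and 3 fell in gPS against GSC (Col5a1, Twist1 and Pdgfra), with a median of -0.79. Without GSC 1 and GSC 3, 1 rose and 3 fell, with a median of -0.16. In ESC against GSC, 0 rose and 3 fell (median -1.09), and without those lines 1 rose and 2 fell (median -0.11). Lyz2, a macrophage lysozyme, was also highest in GSC 1 and GSC 3, at 9.69 and 9.86, against 6.79 and 8.53 in GSC 2 and GSC 4. Cd14, the other macrophage marker of 9 listed that was tested, was not highest there: it stood at 4.25, 4.51 and 4.61 in gPS, where it was not detected, and at 4.97, 4.34, 4.73 and 5.09 in GSC. The part of fibroblast or macrophage RNA in the Thy1 values was not tested.

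**Figure D3:**
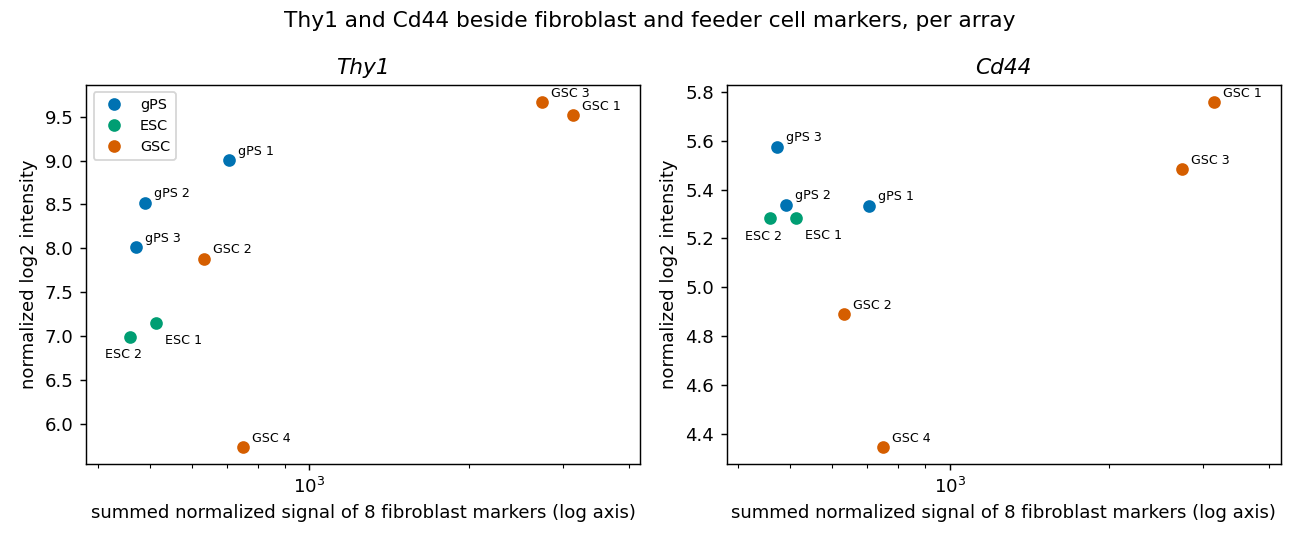
Normalized log2 intensity of Thy1 (left) and Cd44 (right), vertical axes, against the summed normalized signal of 8 fibroblast and feeder cell markers (horizontal log axis), 1 point per array. GSC 1 and GSC 3 stand at the right (3143 and 2740) with the highest Thy1, and GSC 4, at 750, has the lowest level of both genes.

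Cd9, a tetraspanin that organizes adhesion proteins in the membrane, had overlapping levels in the groups. Its log2 intensity was 10.57, 11.35 and 10.31 in gPS, 10.52 and 10.41 in ESC, and 10.81, 10.58, 10.79 and 10.64 in GSC. The highest array was gPS line 2, and the GSC lines were tight, with an SD of 0.11. The difference was 0.04 in gPS against GSC (95% interval -0.46 to 0.55), -0.24 in ESC against GSC (95% interval -0.81 to 0.33) and 0.29 in gPS against ESC (95% interval -0.31 to 0.89). None passed, with limma adjusted p-values of 0.882, 0.45 and 0.668, and the intervals cover differences in either direction. Signs depended on single choices, since without gPS line 2 the difference was -0.26 in gPS against GSC and -0.02 in gPS against ESC.

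Cd44, the hyaluronan receptor of mesenchymal and many adult stem cells, passed the detection filter with 1 of its 6 probes (ILMN_3114585), and near the detection limit. Its log2 intensity was 5.33, 5.34 and 5.58 in gPS, 5.29 and 5.28 in ESC, and 5.76, 4.89, 5.48 and 4.35 in GSC. GSC 4 did not detect it, and as for Thy1 the GSC range enclosed the other groups, with GSC 4 the lowest array. The SD among GSC lines was 0.63, larger than for 95.7% of probes. The differences were 0.30 in gPS against GSC, 0.17 in ESC against GSC and 0.13 in gPS against ESC (limma adjusted p = 0.407, 0.689 and 0.9). These values include GSC 4 at a level not above background. With GSC 1 and GSC 3 left out, Cd44 passed in gPS against GSC (limma adjusted p = 0.0201), but 1 of the 2 GSC arrays then left was GSC 4, so no fold is given. Without GSC 4 the sign in ESC against GSC turned, to -0.09. In the platform table, the detected probe and the other 5 carry different transcript accessions.

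The remaining probes gave no level that could be told from background. Alcam, an adhesion protein that binds the lymphocyte receptor Cd6, was detected on GSC 3 alone, and the Cd44 probe ILMN_2730266 on GSC 1 alone. Cd24a, Prom1 and 4 Cd44 probes were detected on 0 of 9 arrays. The values of all 8 probes lay between 4.18 and 5.01 on the log2 scale. The lowest detected probe of an array lay between 4.75 and 4.94 in GSC and between 4.996 and 5.22 in gPS and ESC. Detection on a GSC array alone was thus not a higher level. Alcam stood at 4.95 in GSC 3 and, undetected, at 5.01 in ESC 2. Cd44 ILMN_2730266 stood at 4.76 in GSC 1 and, undetected, at 4.98 in gPS line 2. Fitted without the detection filter, 0 of the 24 tests of the 8 probes in limma passed (lowest adjusted p 0.111, 1 unadjusted p under 0.05), and no difference exceeded 0.28. A single probe per gene, as for Cd24a, Alcam and Prom1, bounds what these arrays can show: the probes were not detected, and whether the RNAs are absent was not measured.

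**Figure D4:**
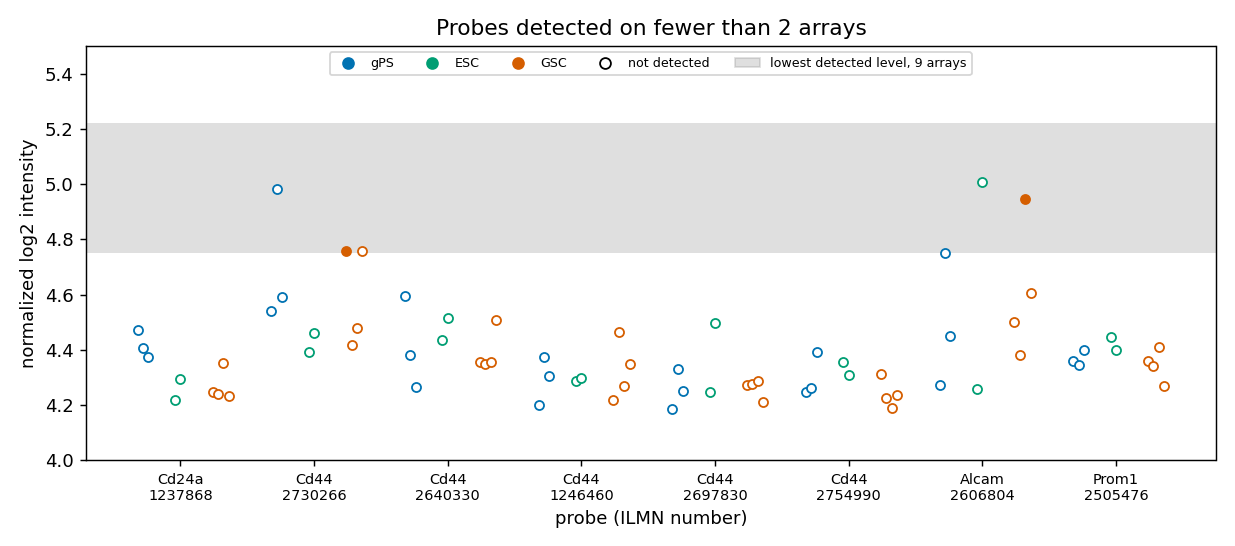
Normalized log2 intensity (vertical axis) of the 8 probes detected on fewer than 2 arrays, by probe (horizontal axis) and with gPS, ESC and GSC from left to right; open points were not detected and the grey band spans the lowest detected level of the 9 arrays (4.75 to 5.22). The filled points, on Cd44 ILMN_2730266 and Alcam, are the detected ones. Each lies below an open point of the same probe, gPS line 2 for Cd44 and ESC 2 for Alcam.

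For each tested gene, the genes whose levels ran most alike over the 9 arrays were taken from 8607 genes by Pearson's r, as a description in which all points share the arrays and the separation of the groups. For Mcam they were Mff, a mitochondrial fission factor (r = 0.993), Extl2, a glycosyltransferase (0.989), and Usp37, a deubiquitinase (0.988). For Alpl they were Tmem209 (0.991), the small nucleolar RNA Snora65 (0.990) and the kinase Dyrk3 (0.989). For Thy1 they were Phlda1 (0.967), the surface protein Mxra8 (0.967) and the matrix protein Ecm1 (0.963), which are likewise high in GSC 1 and GSC 3 and lowest in GSC 4. For Cd44 they were the secreted proteins Fstl1 (0.964) and Sparc (0.961) and the collagen and elastin cross-linker Loxl1 (0.961), which is also a fibroblast marker above. For Cd9, with no comparison called, the highest values were lower: Nfatc1 (0.913), Mycbp2 (0.873) and Ltbp1 (0.871), each with its highest level in gPS line 2.

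Related surface genes were read from lists by role, as counts of genes that rose or fell in gPS against GSC, where 25.2% of all genes rose and 30.8% fell, and the median of all genes was -0.07. In the order below, the lists held 28, 17, 30, 33, 27, 10, 12, 17 and 19 genes. Only genes with a kept probe were tested and counted, and some genes are in more than 1 list. Of 13 tetraspanins and Cd9 partners tested, 3 rose and 6 fell, with a median of -0.33. Tspan6 rose by 1.60 and Cd81, a close relative of Cd9, by 0.88 on the log2 scale. Cd82 was at least 4.77-fold lower and Tspan33 at least 4.43-fold lower, where 0 of 3 gPS arrays detected Cd82 and 2 of 3 detected Tspan33. An "at least" value sets the mean of the higher group against that of the lower group, in which each array that did not detect the probe is put at its own value or at that array's lowest detected level, whichever is higher, and every other array keeps its value. Of the genes given in this way for gPS against GSC below, Fut4 and Nes were detected on 2 of 3 gPS arrays, Cdh1 and Eng on 1 of 4, Nt5e on 2 of 4 and Itga6 on 3 of 4 GSC arrays, and the others on none of the lower group. Of 6 hyaluronan and Cd44 partners, 3 rose and 1 fell (median 0.55). Ezr, which links Cd44 to actin, rose by 2.35, Has2, a hyaluronan synthase, was at least 1.81-fold higher, and the hyaluronidase Hyal2 fell by 0.92. Has2 was also at least 1.46-fold higher in gPS than in ESC (limma adjusted p = 0.0169).

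Among genes of the anchor that Thy1, Cd24a and Alpl carry, 2 of 17 rose and 7 fell (median -0.29). Piga, of the enzyme for the opening step of GPI synthesis, rose by 1.13 and the mannose donor subunit Dpm2 by 0.97. Pigp, of the same enzyme as Piga, fell by 2.06 and Dpm3 by 1.63. Of 22 other GPI-anchored proteins, 6 rose and 6 fell (median -0.23). Folr1, a folate receptor, was at least 13.7-fold higher and the glypican Gpc1 rose by 1.96, while the germ cell protein Tex101 was at least 11.6-fold lower and Gfra3 at least 2.06-fold lower.

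Of 12 immunoglobulin family adhesion proteins, 7 rose and 2 fell (median 1.14). The junction proteins Jam2 and Esam were at least 6.59-fold and at least 4.10-fold higher, whereas Cadm1, an adhesion protein of spermatogenic cells, fell by 2.47 and Nptn by 1.14. Mcam thus moved opposite to most called genes of this list. Basp1, 1 of the 7 that rose, is counted there although it has no immunoglobulin domain. Of the mineral metabolism genes beside Alpl, 2 were tested: the pyrophosphate transporter Ank rose by 1.01 and the phosphatase Phospho1 was at least 1.20-fold lower.

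Among 6 genes tested of the germline stem cell surface list, 2 rose and 2 fell (median -0.30). Ret, the signalling receptor for GDNF, was at least 16.97-fold lower and its partner Gfra1 was called lower (limma adjusted p = 0.0165) but was not detected in gPS and lay near the detection limit in GSC (4.85, 5.33, 5.02 and 5.18), so no fold is given, while E-cadherin (Cdh1) was at least 15.3-fold higher and Itga6 at least 1.80-fold higher. Bcl6b, a transcription factor, is counted in that list. Of 11 tested of the pluripotent cell surface list, 6 rose and 1 fell (median 0.79). Slc7a3, an arginine and lysine transporter, rose by 4.93 and Cldn6 was at least 19.3-fold higher. The fucosyltransferase Fut4 was at least 1.78-fold lower. Of 10 other adult stem cell genes, 4 rose and 3 fell (median -0.18). Eng was at least 3.205-fold and Nt5e at least 2.55-fold higher, whereas Lrig1 fell by 2.42 and Nes, a filament protein inside the cell, was at least 1.83-fold lower. Ngfr and Itgav of this list were lower in gPS than in ESC (limma adjusted p = 0.0158 and 0.0403), by 1.34 for Ngfr and at least 1.71-fold for Itgav.

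In ESC against GSC, which shares the GSC arrays, 24.6% of all genes rose and 29.7% fell. There 3 of 13 tetraspanins rose and 5 fell, 2 of 6 hyaluronan and Cd44 partners rose and 1 fell, 2 of 17 GPI synthesis genes rose and 7 fell, and 7 of 22 other GPI-anchored proteins rose and 6 fell. Of 12 immunoglobulin family genes 7 rose and 1 fell, and of 2 mineral metabolism genes 1 rose and 1 fell. Of 6 germline surface genes 2 rose and 1 fell, of 11 pluripotent surface genes 7 rose and 1 fell, and of 10 other adult stem cell genes 4 rose and 2 fell. Without GSC 1 and GSC 3, tetraspanins in gPS against GSC stood at 2 rises and 4 falls, other GPI-anchored proteins at 7 and 5 with a median of 0.24, and other adult stem cell genes at 5 and 2 with a median of 0.39, so the sign of both medians turned. The counts also depend on the scaling. With each array scaled to its median in place of quantiles, the median of all probes in gPS against GSC moved from -0.03 to 0.19 and the rises among calls from 47.1% to 60.4%. In ESC against GSC the median moved from -0.05 to 0.18 and the rises from 47.9% to 59.9%. Tetraspanins then stood at 3 rises and 3 falls, other GPI-anchored proteins at 8 and 3 with a median of 0.08, and other adult stem cell genes at 4 and 3 with a median of 0.31. Mcam and Alpl kept their calls and directions against GSC in each of the 24 alternatives run, this scaling included.

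**Figure D5:**
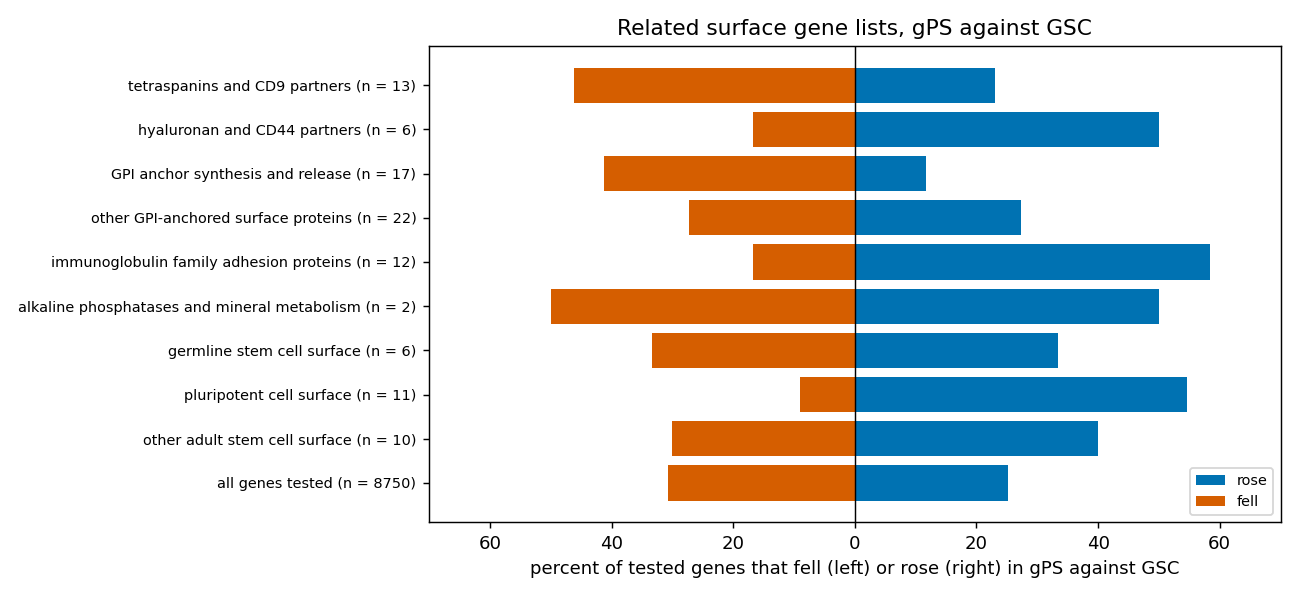
Percent of the tested genes of each list that rose (right, blue) or fell (left, orange) in gPS against GSC, with the number tested beside each list and all 8750 genes as the bottom bar. Falls outnumber rises for tetraspanins (6 and 3) and GPI synthesis (7 and 2), and rises outnumber falls for immunoglobulin family (7 and 2) and pluripotent surface genes (6 and 1). The lists are not separate sets: Icam1 and Pecam1 are counted as rises in both of the latter. Cdh1 is counted as a rise in the germline and the pluripotent surface lists.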

How the data were processed

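Total RNA of 9 samples was converted to labelled cRNA and hybridized to 1 bead array each, per the labels' protocols. The deposited signal intensity per probe comes with a detection p-value, per the file headers. BeadStudio 3.2, RMA and lumi are listed in the submitters' processing notes. The authors' deposited processed table, taken as log2 from its range because its base is not stated, has equal quantiles on all arrays and served as an alternative.

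The intensities were background-corrected, quantile-normalized and log2-transformed by neqc in limma 3.58.1 (R 4.3.3; offset 16, with the negative controls' mean and SD estimated from the detection p column). Probes with a detection p under 0.01 on at least 2 of 9 arrays were kept. The platform table gave 1 symbol to 23978 probes and none to 1719. All 9 arrays entered 1 limma fit of group means, with Benjamini-Hochberg adjustment over 12695 probes, and a gene was read by its probe with the highest mean. It was checked on simulated data. P-values measure the spread among these arrays, which may be technical for ESC, and the number of arrays limits precision. Summed marker signals are normalized signals less the offset. The 8 genes, the lists and the alternatives were chosen with earlier results of these data known. Genes named are the 8, the 2 largest rises and 2 largest falls of each list among called genes, or its 2 brightest where none was called, and the 3 most alike by correlation. The fibroblast markers, Lyz2, Cd14, Dazl, Etv5, Tdgf1, Tek, Basp1, Bcl6b, Icam1, Pecam1, Ngfr and Itgav were named after their values were seen. Alternatives covered background, scaling, filter, probe choice, groups fitted, blocks, merged or omitted arrays and a 2-fold minimum.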

Additional observations from a re-analysis of the deposited data

Results flagged for a closer look

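Of the undetected probes, Cd24a had its GSC 3 value apart from the other GSC arrays, with a gap of 0.8687 of the group's range, above the 95% critical value of Dixon's test for 4 samples. Likewise the Cd44 probe ILMN_2640330 had GSC 4 apart from the other GSC arrays, with a gap of 0.9507 of the range. Neither probe was detected there, and chance flags about 1 in 20 groups. For Mcam (ILMN_2955919), the fall against GSC was smaller in gPS (-2.70) than in ESC (-4.24). The signed difference of these falls, 1.535 on the log2 scale, is the difference between gPS and ESC tested in limma (adjusted p = 0.014). When the ESC arrays are averaged, the difference stays at 1.53 but is not called. In that fit ESC is 1 sample whose spread is taken from the other groups.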

How the results depend on the processing

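Of 486 values of the surface probes recomputed under 24 alternatives, 468 kept their direction and side of the threshold, 6 lost the call, 4 gained it and 8 changed sign. Mcam and Alpl kept every call against GSC. Sign changes came with median scaling for Cd9 in ESC against GSC (0.23), without GSC 4 for Thy1 in gPS against GSC (-0.51, and -0.51 to 0.80 over single arrays left out) and Cd44 in ESC against GSC (-0.092, and -0.092 to 0.38), without gPS line 2 for Cd9 in gPS against GSC (-0.26, and -0.26 to 0.26) and gPS against ESC (-0.017, and -0.017 to 0.50), and without GSC 1 and GSC 3 for Thy1 in ESC against GSC (0.27). The line number used as a replicate block is no known pairing, since deviations of same-numbered gPS and GSC arrays correlated at 0.08, -0.06 and -0.16. With this replicate block, Thy1 was -0.51 in gPS against GSC, Cd44 was -0.026 in ESC against GSC, Thy1 was called in ESC against GSC (-1.91, limma adjusted p = 0.0112), 0 surface genes were called in gPS against ESC (Mcam adjusted p = 0.0540), and 6426, 6237 and 27 probes were called in gPS against GSC, ESC against GSC and gPS against ESC. Without the block these were 6938, 6764 and 144. The 144 became 74 with median scaling, 50 with detection on 9 arrays, 89 with 1 probe per gene, 9 with those groups fitted alone, 10 with ESC averaged, 81 with GSC 1 and GSC 3 averaged, 45 with both left out, and 10 to 289 with single arrays left out (10 without ESC 1, 14 without ESC 2, 289 without gPS line 3). Detection on 9 arrays left 4493 calls in gPS against GSC and 4359 in ESC against GSC, by testing 7902 probes, and a 2-fold minimum left 3671 and 4129. With single arrays left out they were 6170 to 6897 and 4783 to 7221. Surface genes called in gPS against ESC were 0 with those groups alone, with ESC averaged and with GSC 1 and GSC 3 left out, and 0 to 1 with single arrays left out. Those called in gPS against GSC were 4 without GSC 1 and GSC 3, and 2 with single arrays left out. In ESC against GSC they were 2 to 3 with single arrays left out and 3 with the block. The share of rises among gPS against ESC calls was 40.3%, and 60.2% in the authors' processed values, 43.2% with median scaling. The cause of these changes was not tested. Cd44 lies near background, which limits its folds.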

Other observations

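Thy1 and Mcam lie on the same chromosome with 7 annotated genes between them, 4 of them protein coding (Usp2, C1qtnf5, Mfrp and Rnf26), a set chosen after values were seen. The brightest probe of Usp2, a deubiquitinase, stood at 7.19, 6.89 and 6.30 in gPS, 6.51 and 6.19 in ESC, and 9.72, 9.81, 9.73 and 9.10 in GSC on the log2 scale. Its difference from GSC was -2.80 in gPS and -3.24 in ESC, lower as for Mcam, and a further Usp2 probe (ILMN_2466316, detected on 4 of 9 arrays) was called lower too, with measured differences of -1.02 in gPS and -0.94 in ESC (limma adjusted p = 0.000423 and 0.00179). The remaining Usp2 probe (ILMN_2482390) differed by 0.04 in gPS and was detected on 2 of 9 arrays, near the detection limit. Rnf26, a membrane ubiquitin ligase, differed from GSC by -0.95 in gPS and by -0.96 in ESC. Falls were common, since 30.8% of all genes fell in gPS and 29.7% in ESC against GSC. The Mfrp probe was not detected. Of 3 Sertoli cell markers tested, 1 rose and 2 fell in gPS against GSC: Clu was at least 2.05-fold higher (limma adjusted p = 0.00836), with 3 of 4 GSC arrays detecting it, Cldn11 was at least 1.23-fold lower, and Wt1 was at least 5.68-fold lower, with 2 of 3 gPS arrays detecting it. Wt1 stood at 6.06, 4.68 and 6.42 in gPS, 5.74 and 5.602 in ESC, and 8.45, 8.15, 8.37 and 8.66 in GSC. It was lower in each pluripotent array than in any GSC array, as were 27.7% of all genes. Of 6 endothelial markers 2 were tested, with a summed signal of 82.3 to 286 in gPS, 150 to 160 in ESC and 18.9 to 31.4 in GSC. Esam carried this sum, since Tek differed by 0.06 on the log2 scale in gPS against GSC (limma adjusted p = 0.827), and gPS overlapped ESC. Of 6 Leydig cell markers, 5 were on the array, and 0 of these passed the detection filter.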
